A study of Mus musculus with 2 samples.

Results

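The genes examined here encode the enzymes that build heme and the one that opens its ring. The set holds 9 genes, Alas1, Alas2, Alad, Uros, Urod, Cpox, Ppox, Fech and Hmox1, out of 22380 protein-coding genes of GENCODE M1, and a GATA4 occupied site (OS) belonged to a gene when its midpoint lay in the gene body or within 50 kb of it. By this rule 9 of the 4409 GATA4 OS were in reach of 6 of the 9 genes. GATA4 chromatin immunoprecipitation followed by sequencing (ChIP-seq), which sequences the DNA recovered with GATA4 by an antibody, had been carried out with antibody C-20 on whole liver of C57BL/6 x Sv129 mice at 2 to 3 months after birth according to the labels, while the study's methods give a somewhat older range. Liver DNA of the same strain and age, sequenced without antibody, was the background of the peak calls. The labels hold 1 ChIP and 1 input sample, and the ChIP files cover a pair of biological replicates, each pooled from a pair of mice, in 1 set of peak lists. Neither sample carried a transgene, a deletion or a treatment according to its labels.

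With 1 ChIP sample there is no spread between replicates, and no p-value is given. Every peak carries the same score of 1000, so the files do not give the height of a peak, and the number of reads behind each peak is not in the files analysed here. The number that a peak has in its list is given instead. For the reproducibility step the study's methods rank SPP peaks by signal and MACS2 peaks by p-value, but whether the numbers keep that order is not given in the sources used here. Whole liver holds hepatocytes together with endothelial, Kupffer and other blood cells, and a peak list cannot tell in which of them a site was occupied. At sites of factor X, FOG1, HNF4α and HNF6, the study found GATA4 lost once Gata4 was deleted from hepatocytes. It took occupancy at these genes to be in hepatocytes only. Sites of the heme genes were not among those examined in that way. The lists hold no expression values, so the tissue label could not be set against marker genes. Of the 3 lists, the common list holds SPP peaks that met a MACS2 peak, and the SPP list (4811 peaks) and the MACS2 list (5867 peaks) served as support.

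Heme is made in a chain of enzymes that begins and ends in the mitochondrion. A synthase, ALAS1 in most tissues and ALAS2 in erythroid cells, joins glycine and succinyl-CoA. ALAD, UROS and UROD are among the enzymes that then build and trim a porphyrin ring in the cytosol, and CPOX, PPOX and FECH oxidise it and insert iron. Heme oxygenase 1, from Hmox1, breaks heme down to biliverdin, iron and carbon monoxide. The liver uses much of its heme for cytochrome P450 enzymes, and ALAS1 is the step at which its heme synthesis is chiefly controlled.

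GATA factors bind WGATAR, where W is A or T and R is A or G, on either strand. Cpox OS 2478, Ppox OS 376, which held 0 WGATAR, and the Fech site are not printed below. The sequences that follow are the other occupied sites in reach of the pathway, from its first enzyme to its later ones. They are shown so that a reader can see in each how the GATA motifs lie. They are written 5′ to 3′ on the plus strand of mm9, in lower case, with each WGATAR in capitals, which reads as its reverse complement where the motif is on the minus strand. The Cpox promoter OS is shown only up to the base before the transcription start site (TSS).
Alas1, OS 854, chr9:106167725-106167952: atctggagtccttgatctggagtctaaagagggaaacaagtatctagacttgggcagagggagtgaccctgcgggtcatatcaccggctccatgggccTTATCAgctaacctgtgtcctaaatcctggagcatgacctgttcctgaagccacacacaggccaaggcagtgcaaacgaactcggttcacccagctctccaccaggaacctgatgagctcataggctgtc
Alad, OS 1469, chr4:62164164-62164319: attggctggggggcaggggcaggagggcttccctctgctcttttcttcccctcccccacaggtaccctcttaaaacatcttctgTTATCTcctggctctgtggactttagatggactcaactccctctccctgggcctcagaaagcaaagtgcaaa
Uros, OS 3875, chr7:140922687-140922766: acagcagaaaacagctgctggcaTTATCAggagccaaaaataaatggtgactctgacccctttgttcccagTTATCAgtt
Cpox, OS 147 upstream of the TSS, chr16:58670169-58670320: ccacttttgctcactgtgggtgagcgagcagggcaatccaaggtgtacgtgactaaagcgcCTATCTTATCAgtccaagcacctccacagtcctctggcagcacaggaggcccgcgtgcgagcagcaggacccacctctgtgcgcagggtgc
Cpox, OS 2179, chr16:58669445-58669569: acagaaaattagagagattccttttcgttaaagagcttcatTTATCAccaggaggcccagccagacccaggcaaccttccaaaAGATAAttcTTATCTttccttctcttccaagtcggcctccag
Ppox, OS 2613, chr1:173196581-173196735: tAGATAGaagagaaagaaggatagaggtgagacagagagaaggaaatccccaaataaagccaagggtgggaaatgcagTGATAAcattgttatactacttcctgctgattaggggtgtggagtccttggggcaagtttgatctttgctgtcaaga

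Cpox, which encodes the enzyme that turns coproporphyrinogen into protoporphyrinogen, had the most GATA4 OS of the 9 genes. The gene runs from 58670321 to 58680504 on the plus strand of chromosome 16, and its 3 OS all lay upstream of it or across its start. OS 147, 303 bp wide, was centred 1 bp before the TSS, so that it covered the end of the promoter and the beginning of exon 1. OS 2179, 125 bp wide, was centred 814 bp before the TSS, and OS 2478 (58662440 to 58662759) 7722 bp before it. The first 2 were thus 813 bp apart from midpoint to midpoint, and all 3 lay within 8032 bp. For each of them Cpox was also the protein-coding gene with the nearest TSS. Of all protein-coding genes, 3.24% had 3 or more common OS in reach.

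The 3 Cpox sites held 8 WGATAR motifs between them. OS 147 had 3, of which 2 overlapped by 1 base at 58670230 to 58670240 (AGATAG, then the motif TGATAA, both on the minus strand), and the other, AGATAA on the minus strand at 58670325 to 58670330, lay in exon 1. OS 2179 had 3 motifs within its central 100 bp. OS 2478 had 2, at 71 and 109 bp from its midpoint, and also the forkhead motif TGTTTAC at 58662619 to 58662625, which was present in 6.26% of all common OS. In the common list OS 147 stood within the first 3.33%, and the MACS2 peak at the same place, number 81, within the first 1.38% of its list. OS 2179 (49.4% of the way down the common list, MACS2 peak 1787) and OS 2478 (56.2%, MACS2 peak 4023) stood lower in both lists.

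**Figure D1:**
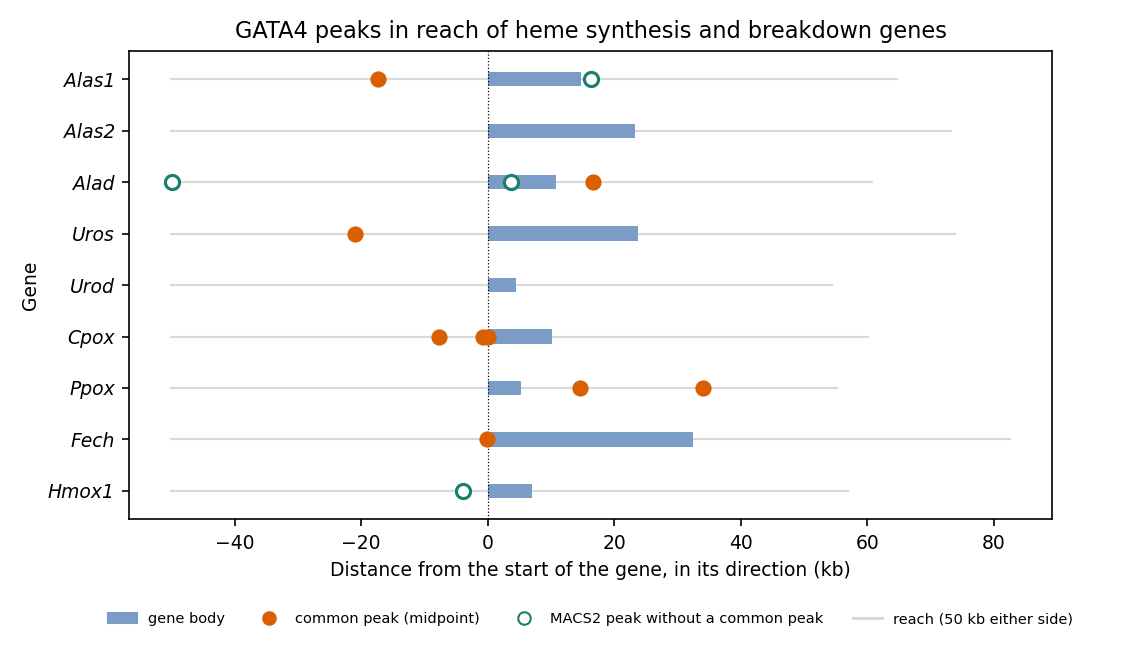
Map of the 9 genes, one per row, with the distance from the start of the gene in kb on the x axis, counted in the direction of transcription. Blue bars are gene bodies, grey lines the reach of 50 kb on either side, filled points the midpoints of common OS and open points those of MACS2 peaks that met no common OS. No common OS midpoint lies in a gene body, Cpox has 3 OS, and Alas2 and Urod have none of either kind.

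Fech encodes ferrochelatase, which inserts iron into protoporphyrin as the last step of the pathway. It lies on chromosome 18 from 64616204 to 64648720, on the minus strand. A single common OS, number 2254, 162 bp wide (64648758 to 64648919), was centred 118 bp before its TSS and held 1 WGATAR, 4 bp from the midpoint. MACS2 peak 1145, 1161 bp wide, covered it, so the site stood at 51.1% of the common list and at 19.5% of the MACS2 list. With Cpox, Fech was 1 of 2 genes of the 9 that had an OS within 1 kb of their own TSS, and 3.44% of all protein-coding genes had one. Both promoter sites were rich in G and C, with 61.7% in OS 147 at Cpox and 67.9% in OS 2254 at Fech. The median was 49.4% over all common OS and 56.9% over the common OS within 1 kb of a protein-coding TSS.

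Alas1, the gene of the first enzyme of heme synthesis in liver, spans 106135786 to 106150457 on the minus strand of chromosome 9. Its common OS, number 854 and 228 bp wide, lay 17.4 kb upstream of the TSS in sequence without an annotated gene. The nearest protein-coding TSS was that of Poc1a, a gene of centriole biology, at 15.6 kb, so the site was about as far from one gene as from the other. It held 1 WGATAR, the motif TGATAA at 106167823 to 106167828 and 12 bp from the midpoint, and MACS2 peak 493, within the first 8.4% of its list, covered it. The same OS carried 1 antioxidant response motif, TGACNNNGC on either strand, a sequence that 10.9% of the common OS held. A further MACS2 peak, number 5470 (106133596 to 106134517), lay 1.73 kb past the end of Alas1 and held 4 WGATAR, but it stood at 93.2% of the MACS2 list and met no SPP or common peak.

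The other 4 of the 9 OS were in reach of Alad, Uros and Ppox but lay closer to another gene. OS 1469, 5.96 kb past the end of Alad, the gene of aminolevulinate dehydratase (chromosome 4, 62170203 to 62180952, minus strand), was in intron 1 of Hdhd3 and 260 bp downstream of its TSS. OS 3875, 21.0 kb upstream of Uros, the gene of uroporphyrinogen III synthase (chromosome 7, 140877926 to 140901755, minus strand), was in an intron of Dhx32, 143 bp from a TSS of that gene. Ppox, the gene of protoporphyrinogen oxidase (chromosome 1, 173206121 to 173211317, minus strand), had OS 2613 at 9.46 kb and OS 376 at 28.8 kb past its end. OS 2613 was nearest to B4galt3, a galactosyltransferase gene, at 3.8 kb, and OS 376, 227 bp wide, also had a nearer TSS than that of Ppox. With the OS near Poc1a, 5 of the 9 OS had a nearer protein-coding TSS than that of the heme gene.

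When an OS was given only to the gene with the nearest protein-coding TSS, Cpox with 3 OS and Fech with 1 were the genes left, that is 2 of 9 genes, against 12.4% of all protein-coding genes. When every gene in reach counted, 6 of 9 genes had an OS (66.7%), and 27.7% of all protein-coding genes did. A longer gene has a wider reach, and the median length was 10.8 kb for the 9 genes and 15.4 kb for all protein-coding genes. The part of gene length, or of the number of neighbouring genes, in these shares was not tested. A reach of 10 kb left Alad, Cpox, Ppox and Fech (4 of 9, against 13.7% of all), and a reach of 100 kb added no gene. The SPP list gave the same count, 6 of 9 (29.2% of all), and the MACS2 list gave 7 of 9 (33.9% of all), with Hmox1 as the added gene. Around the limit of 50 kb, the most distant common OS inside was OS 376, 28.8 kb from Ppox, and the nearest one outside was OS 441, 52.0 kb from Ppox and nearest to Apoa2.

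**Figure D2:**
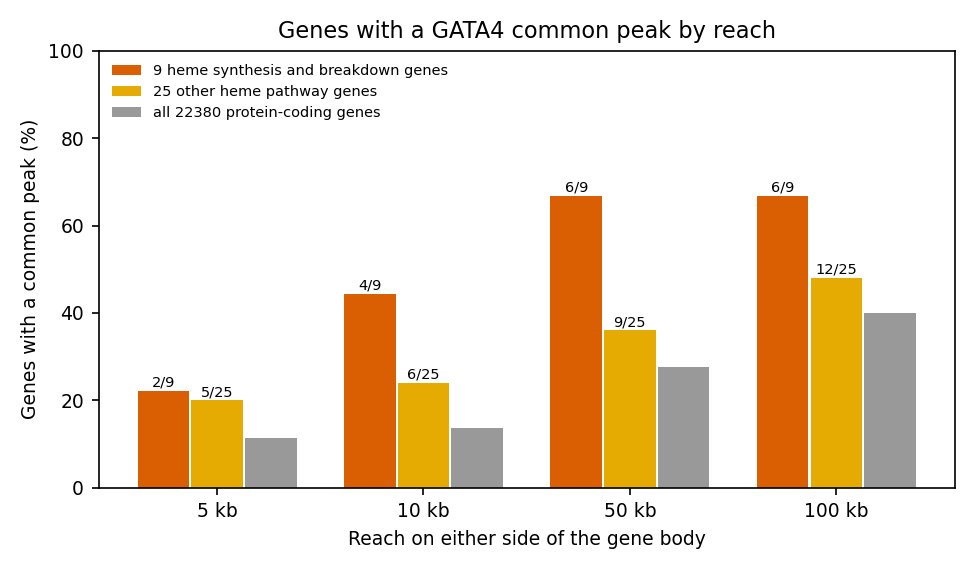
Share of genes, in percent on the y axis, with at least 1 common OS in the gene body or within the reach on the x axis. Orange bars are the 9 heme synthesis and breakdown genes, yellow bars the 25 other heme pathway genes and grey bars all 22380 protein-coding genes, and the fractions are counts of genes. The orange bar rises from 2 of 9 at 5 kb to 6 of 9 at 50 kb, and the grey bar from 11.3% at 5 kb to 40.0% at 100 kb.

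The remaining 3 genes had no common OS in reach, and they differed in what lay around them. Urod, which encodes uroporphyrinogen decarboxylase (chromosome 4, 116662570 to 116667018, minus strand), had no peak of any list within 50 kb, and the closest common OS, number 4012, lay 139599 bp from it and nearest to Plk3. Alas2, the synthase gene of erythroid cells (chromosome X, 146981918 to 147005181, plus strand), also had no peak of any list, and the closest common OS on its chromosome was 5064773 bp away, near Amot. The X chromosome held 30 common OS, or 0.18 per Mb, against 1.77 per Mb on the autosomes, and 3.97% of its 932 protein-coding genes had an OS in reach. The part of this low density in the result for Alas2 was not tested.

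The sequence around Alas2 was nonetheless the richest in GATA motifs of the 9 genes. Its gene body with 50 kb on either side held 352 WGATAR, or 2.86 per kb, and none was in a peak. Around Alas1 there were 151, or 1.32 per kb, the lowest value of the 9, and 1 of them lay in an OS. The other genes had 1.62 to 2.67 per kb. The number of motifs in reach did not order the genes as the OS did. In the RefSeq promoter table, built on GRCm38.p6 and reaching from 250 bases before to 50 after the TSS, 7 of the 9 genes were found. WGATAR was in the promoter of Alas2, in that of Cpox and in 1 of 2 promoters of Uros, and in 0 of those of Alas1, Alad, Urod and Ppox. Of all 32851 promoters in the table, 29.8% held the motif.

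Hmox1, the gene of the inducible heme oxygenase (chromosome 8, 77617490 to 77624495, plus strand), had a peak in the MACS2 list alone. Peak 5448, 888 bp wide (77613085 to 77613972), was centred 3962 bp before the TSS, and Hmox1 was the nearest protein-coding gene. It stood at 92.9% of the MACS2 list, and no SPP peak met it, so it is not among the common OS. The closest common OS on the chromosome was OS 16, 2543843 bp away and nearest to Med26. Hmox1 is known for distal enhancers upstream of the gene that bind NRF2 and BACH1 through antioxidant response motifs. The peak held 2 such motifs, TGACACAGC at 77613597 to 77613605 and, on the same minus strand, the motif TGACTCAGC at 77613649 to 77613657, and 27.5% of all MACS2 peaks held at least 1. Its only WGATAR, at 77613784 to 77613789, lay 259 bp from the midpoint. Like this peak, 90.3% of all MACS2 peaks held a WGATAR somewhere. The stretch that holds all 3 motifs is shown because it carries both kinds of motif at the one gene of heme breakdown among the 9, with the antioxidant response and WGATAR motifs in capitals.
Hmox1, MACS2 peak 5448, chr8:77613567-77613819: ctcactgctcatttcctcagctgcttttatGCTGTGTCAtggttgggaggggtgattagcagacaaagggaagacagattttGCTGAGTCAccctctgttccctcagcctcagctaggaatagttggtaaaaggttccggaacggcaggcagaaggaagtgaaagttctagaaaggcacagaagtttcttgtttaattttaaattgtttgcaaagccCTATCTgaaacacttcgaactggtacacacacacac

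In reach of Alad, 2 MACS2 peaks also met no common OS. Peak 3456 (62177132 to 62177489) lay in intron 1 of Alad, and it held 0 WGATAR. Peak 3772 (62230609 to 62231043), with 3 WGATAR, was in intron 2 of Rgs3 and 49.9 kb from Alad, just inside the reach. They stood at 58.9% and 64.3% of the MACS2 list. In all, the 9 genes had 13 MACS2 peaks in reach, of which 4 met no common OS.

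Across the 9 common OS, 8 held at least 1 WGATAR (88.9%, Wilson 95% interval 56.5 to 98.0, counting error only), beside 82.9% of all 4409. In windows of the same widths, moved 5 kb away from each common OS, the share was 31.9%. The exception was OS 376, the more distant site of Ppox, where a GATA core without the full motif was present. It was also 1 of the 2 OS in the first 10% of the common list, at 8.53%, and stood at 3.43% of the MACS2 list. Among the 9 OS, 5 held 2 or more WGATAR, beside 34.7% of all common OS. The 15 motifs lay a median of 24 bp from the midpoint of their OS, and 10 of them within 50 bp. The OS were only 80 to 320 bp wide, and a motif in a narrow OS can only lie near its midpoint. Of the 14 outside Fech, 7 read TGATAA on their own strand, 4 read AGATAA and 3 read AGATAG. Neither the distances nor these words are given here for all common OS, so they cannot be called particular to the 9.

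**Figure D3:**
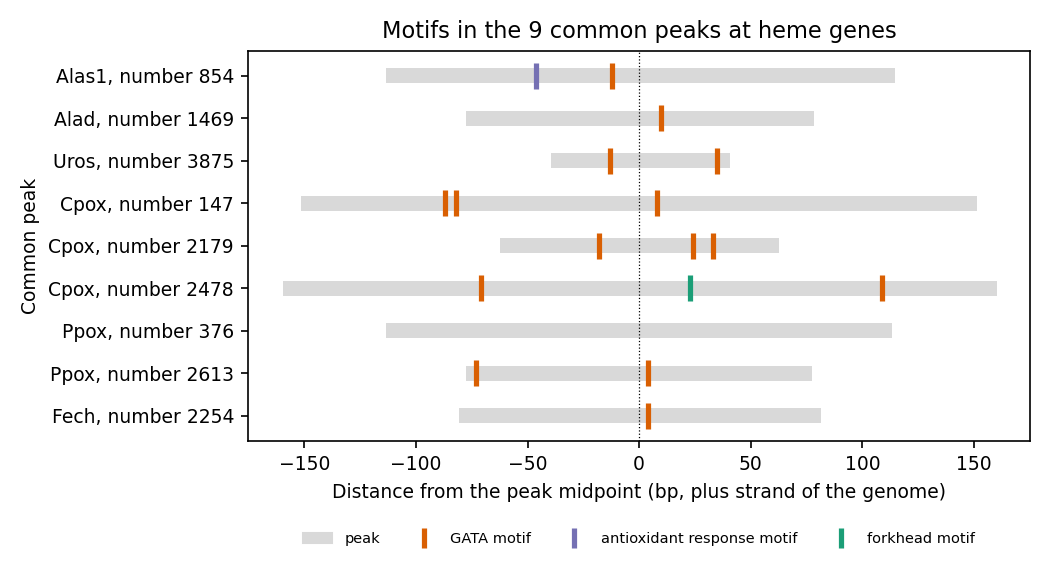
The 9 common OS as grey bars, one per row, aligned on their midpoints, with the distance from the midpoint in bp on the x axis along the plus strand. Orange ticks are WGATAR motifs, the violet tick the antioxidant response motif in the Alas1 site and the green tick the forkhead motif in the Cpox site. OS 376 near Ppox has no orange tick, and 10 of the 15 orange ticks lie within 50 bp of the midpoint. The bars are 80 to 320 bp wide, so a tick in a narrow bar can only lie near the midpoint.

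The positions of the 9 OS ran over most of the common list. Their median number was 2179, beside 2205 for the whole list, and 5 of the 9 were in the leading 50%. Their widths ran from 80 to 320 bp with a median of 162 bp, beside 190 bp for all common OS. Some of the sites had different positions in the 2 lists. OS 3875 near Uros, which with 80 bp is as narrow as 58 common OS and has 2 WGATAR, was at 87.9% of the common list but at 37.3% of the MACS2 list, and the Fech promoter OS was also nearer the head of the MACS2 list. Counting every gene, 6 of the 9 OS lay within 1 kb of a protein-coding TSS, among them those of Hdhd3 and Dhx32, beside 16.6% of all common OS. Of these 6, 3 were at the heme genes themselves.

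**Figure D4:**
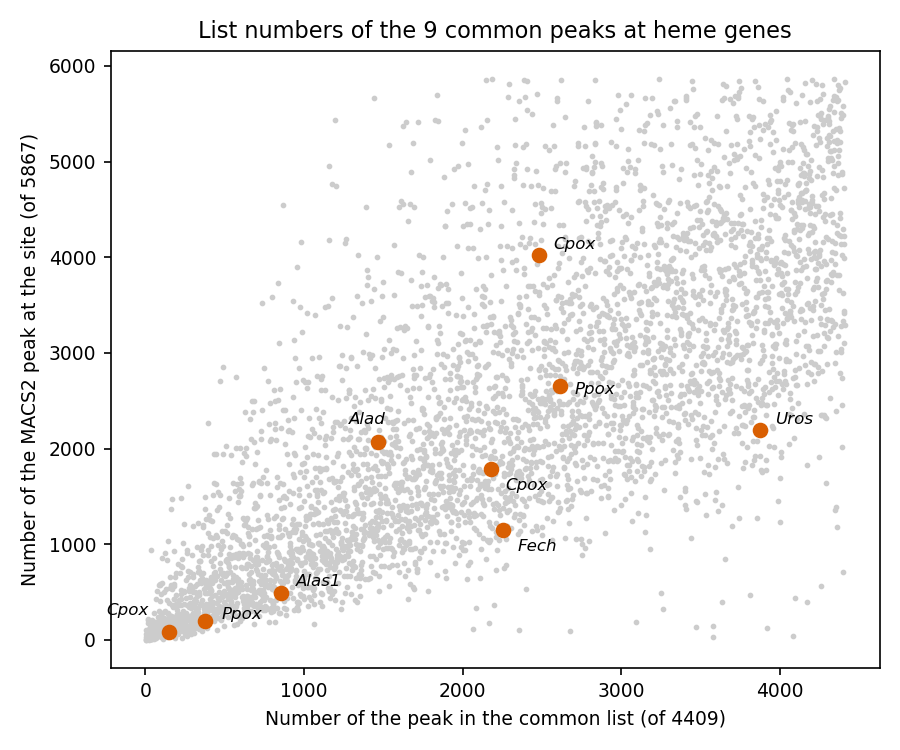
Number of each common OS in the common list (x axis) and of the MACS2 peak at the same site (y axis), where 1 is the first of a list. Grey points are all 4409 common OS and orange points the 9 in reach of heme genes. Cpox OS 147, Ppox OS 376 and Alas1 OS 854 sit near the origin, and the Uros site lies far to the right at a low MACS2 number.

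The 25 other genes of heme handling, listed for this purpose, gave 9 genes with a common OS in reach (36.0%, beside 27.7% of all protein-coding genes) and 15 OS. Blvra and Blvrb, whose products reduce biliverdin, had no peak of any list in reach, and neither did Hpx, which encodes the heme carrier hemopexin. Hmox2, the gene of the constitutive heme oxygenase, had OS 3315 in its intron 1, 1.71 kb from the TSS, with 2 WGATAR. Both regulators of Hmox1 on the list had an OS. Nfe2l2, which encodes NRF2, had OS 1667 centred 505 bp before its TSS and OS 3184 in exon 1, 107 bp after it, and a single MACS2 peak, number 949, covered both. Bach1, which encodes the heme-sensing repressor, had OS 1501 at 12.3 kb upstream, and it was the nearest gene to it.

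Among genes of heme and iron transport, Slc25a37, the mitochondrial iron importer mitoferrin 1, had OS 792 and OS 4055 in its intron 1 and OS 3263 at 44.9 kb upstream. OS 792, at 4.16 kb from the TSS, held 0 WGATAR, and the other 2 held 2 each. OS 3263 was nearer to a TSS of Entpd4, at 7.18 kb. The OS in reach of Slc48a1, a heme transporter gene, were 3 in number, and all lay in Hdac7 or Rapgef3. The 2 in reach of Abcb6, a porphyrin transporter gene, included OS 6, one of the first of the common list, in exon 2 of Tuba4a and 36.9 kb from Abcb6. Flvcr2 (Mfsd7c in the annotation) had OS 2971 in its intron 9, and Tmem14c, which acts in porphyrin transport, had OS 1620 at 15.9 kb upstream. Both OS were nearer to the TSS of another protein-coding gene. For OS 2971 it was 0610007P14Rik, at 12.3 kb, and for OS 1620 it was Pak1ip1, at 638 bp. Cox10, whose product begins the conversion of heme to heme A, had OS 3157 in its intron 5, 90.2 kb from its TSS. The nearest protein-coding TSS to OS 3157 was that of Hs3st3b1, at 67.0 kb. Of these 15 OS, 11 held WGATAR.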

How the data were processed

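GATA4 ChIP-seq of whole mouse liver was analysed from 3 peak lists, which the authors deposited as browser tracks. Per the study's methods and the submitters' processing notes, reads were aligned to mm9 with Bowtie 0.12.7 and only uniquely placed ones were kept, so sites in sequence with identical copies elsewhere can be missed. Peaks were called with a modified SPP and with MACS2 2.0.10 on both replicates and on merged reads against merged input, with thresholds set by the irreproducible discovery rate. SPP peaks that met a MACS2 peak (bedtools 2.16.1) form the common list, with SPP coordinates. The score that the authors deposited is 1000 for every peak and was not used. The input sample entered only through these calls. Read depths are not in the files analysed here.

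Genes and their TSS came from GENCODE M1 and sequence from NCBI Build 37, the build of the files. Positions are counted from 1. Peaks were tied to genes by their midpoint, motifs were matched exactly on both strands, and shares carry Wilson 95% intervals, which cover counting error only. No test was run, since there is 1 ChIP sample and members are not replicates. For 2 of the 25 other heme genes the symbol was matched through RefSeq synonyms. The counting and scanning code was first tested on made-up data. The members, the lists and the rules were chosen with earlier results of these data known, and the antioxidant response and forkhead motifs were added after the peaks had been seen. Every one of the 9 genes is named, as are all other heme genes with a common OS, and some other genes are not reported here. Alternatives covered the reach, the list, the rule that ties peaks to genes and the motif. Python 3.11.15, numpy 2.4.6, pandas 2.3.3 and matplotlib 3.10.9 were used.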

Additional observations from a re-analysis of the deposited data

How the results depend on the processing

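Of 39 recomputed values, 29 left the value within 1.5 times of the main one (for the WGATAR share, within its interval) and 10 moved it. A reach of 5 kb left 2 of the 9 genes (22.2%) with 3 common OS, and 5 of the 25 other heme genes (20.0%). At that reach 11.3% of all protein-coding genes had one. Counting only the gene with the nearest protein-coding TSS left 2 genes with 4 OS, and 4 of the other genes, beside 12.4% of all protein-coding genes. The leading 50% of the common list held 5 of the 9 OS, and an OS for 5 of the other genes. The share of OS with WGATAR was 100% at a reach of 10 kb, and also 100% when WGATA or GATAR was accepted. All these alternatives take fewer OS or a shorter motif. With 1 ChIP sample there was no replicate to leave out, peak strength and read depth are not in the files analysed here, and a site that misses a threshold cannot be told from an unoccupied one.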
